A study of Mus musculus with 6 samples.

Results

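Neural progenitor and neuron genes were examined in the mandibular arch, the lower part of the first pharyngeal arch, from which the lower jaw and its muscles form. The set was fixed by name and held 33 genes: 5 progenitor genes, 24 neuron differentiation genes and 4 genes of neuronal intermediate filaments. All 33 were measured, among 19938 genes that a probe set (a group of probes for a transcript) names alone. Where a gene had more than 1 probe set, the one with the highest mean over the 6 arrays was used. Arches were dissected from C57BL/6 mouse embryos at embryonic day 9.5 (E9.5), and each genotype, Tbx1+/+ (wild type) or Tbx1-/- (Tbx1 null), was hybridised to 3 arrays. The product of Tbx1 is a transcription factor of the T-box family, active in the pharyngeal arches and pouches. The tissue of 3 embryos was pooled for each genotype, and whether arrays of a genotype shared a pool is not stated. Thus p-values, SEs and confidence intervals reflect only the spread from array to array, which may be technical. No source used here describes how the null allele was made. Values are log2 expression levels, a step of 1 being a doubling, and changes are Tbx1 null minus wild type. SE is the standard error of a change.

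The neurons of the cranial ganglia come from placodes, thickenings of the head ectoderm, and from neural crest cells, which also give the ganglia their glia. The Neurog factors start the neuronal fate, Neurod and Nhlh factors follow as cells differentiate, and cytoskeletal, adhesion and synaptic genes come later. Sox1, Sox2 and Sox3 keep neural cells in the progenitor state, and Sox2 is also known in foregut and pharyngeal epithelium. The trigeminal ganglion, whose axons grow into the arch, and the hindbrain lie close to this tissue.

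Tbx1 was lower on every Tbx1 null array (9.48, 9.39 and 9.63) than on any wild type array (11.64, 11.36 and 11.31), 3.83-fold on average (limma adjusted p = 0.000684). The arch's crest mesenchyme was marked by Prrx1, at 12.63, 12.72 and 12.75 in wild type and 12.95, 12.91 and 12.83 in Tbx1 null (change 0.19, limma adjusted p = 0.297), and by Prrx2, with a change of 0.23 (limma adjusted p = 0.116). Both were higher on every null array than on any wild type array. Of 11 such markers none passed the adjusted threshold. By an unadjusted limma p under 0.05, 5 were higher and 0 lower, beside 5.5% and 3.94% of all genes. A change above 0 was seen for 9 of the 11 (median 0.07). No background probes were used here, so it could not be judged whether a dim probe set was above background. Of the 33 genes, 27 lay below the median level of all genes, 8.55, and 7 below the first quartile. The median SE of a change was 0.069 for the 33 genes and 0.058 for all genes.

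No neural gene passed the threshold, a limma p of 0.05 after Benjamini-Hochberg adjustment over all genes, which 0.16% of all genes passed. At an unadjusted limma p under 0.05, 3 of the 33 were lower in Tbx1 null (Ina, Nefl and Neurod1), or 9.09% against 3.94% of all genes. At the same p 2 were higher (Dpysl3 and Dcx), or 6.06% against 5.5% of all genes. Neurod1 and Dcx were among the 7 genes of the set below the first quartile of level, 6.81. The split over all genes turned with the scaling, from 1097 higher and 786 lower as deposited to 899 and 1419 after quantile normalization again and 693 and 1386 after centring on the array median. In all 22 genes had a change below 0 and 11 above, with a median of -0.07 beside -0.01 for all genes. The median was -0.04 for the progenitor genes, -0.06 for the differentiation genes and -0.19 for the filament genes. Without wild type replicate 1 the median of the 33 was -0.01 (0.02 for the progenitor, -0.002 for the differentiation and -0.14 for the filament genes), 17 genes lay below 0 and 16 above, and 1 gene, Gap43, was lower at an unadjusted p under 0.05, against 4.32% of all genes. The genes that were higher then were again Dpysl3 and Dcx, against 5.38% of all genes. For 28 of the 33 genes the 95% confidence interval of the change lay within -0.5 and 0.5, so a change past that size was outside the interval. The other 5, Ina, Neurod1, L1cam, Nefl and Neurog1, had intervals that reached below -0.5. Leaving out other arrays moved these counts and the shares of all genes: 1 gene was lower without Tbx1 null replicate 2, against 2.8% of all genes. The count of higher genes was 1 without wild type replicate 2 (4.04% of all genes), wild type replicate 3 (6.96%) or the null array of that number (4.32%). In dissected tissue fewer cells of a type and less RNA per cell cannot be told apart.

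**Figure D1:**
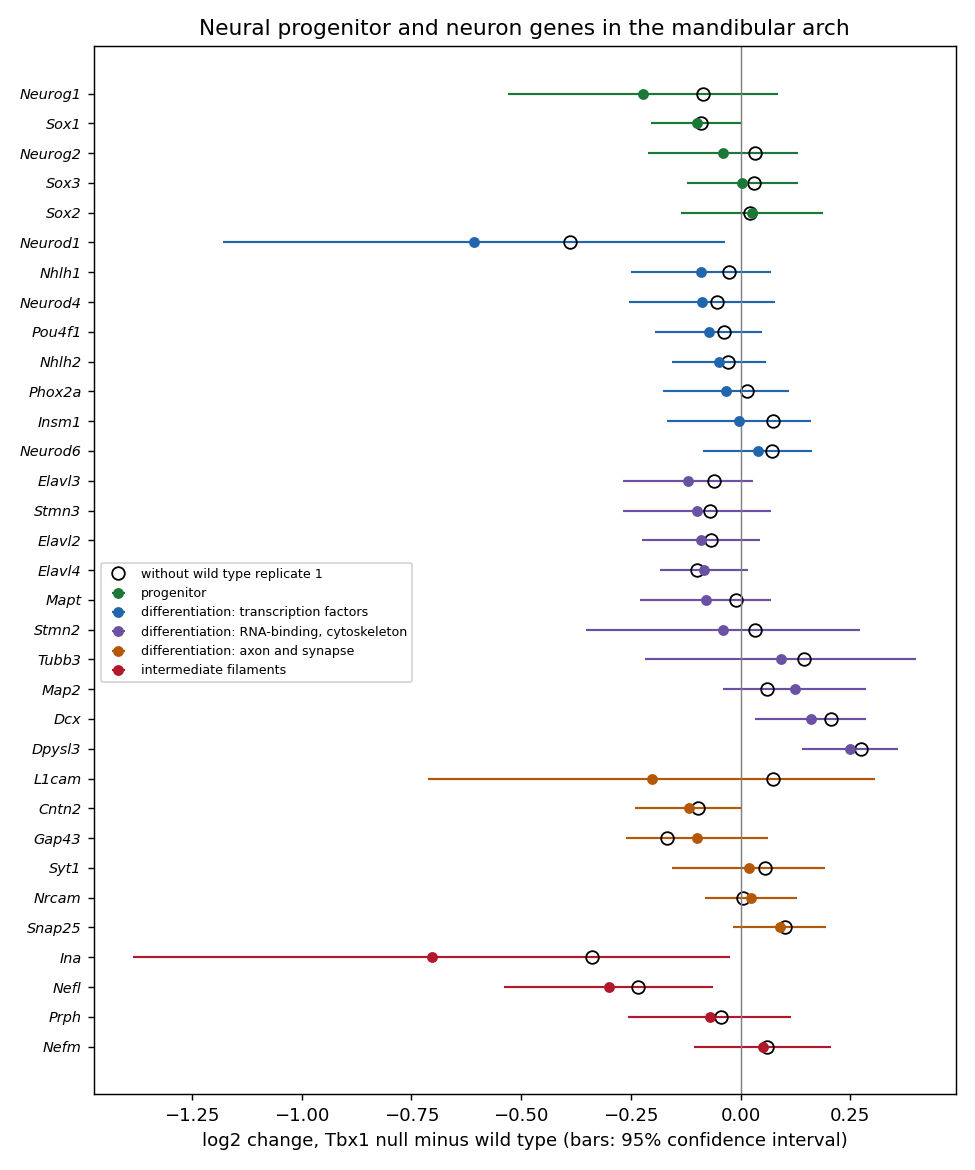
Log2 change of each of the 33 genes, Tbx1 null minus wild type (horizontal axis), with its 95% confidence interval from limma; filled points use all 6 arrays, open circles leave out wild type replicate 1. Most points lie near 0 with narrow intervals, while Ina at -0.70, Neurod1 at -0.61 and L1cam at -0.20 have wide intervals and lie nearer to 0, or above it, without wild type replicate 1.

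Of the progenitor genes 3 had a change below 0 and 2 above, from -0.22 for Neurog1 to 0.03 for Sox2, and none reached an unadjusted limma p under 0.05. Sox2, the progenitor factor shared with pharyngeal epithelium (probe set 10491477, Entrez gene 20674), measured 10.49, 10.45 and 10.55 on wild type replicates 1, 2 and 3 and 10.38, 10.54 and 10.64 on Tbx1 null replicates 1, 2 and 3. The null arrays thus spanned the wild type range, with a change of 0.03 (95% confidence interval -0.14 to 0.19). Sox3, a close relative, gave 9.23, 9.19 and 9.10 in wild type and 9.25, 9.14 and 9.14 in Tbx1 null. Its change of 0.004 (interval -0.12 to 0.13) was the smallest among the progenitor genes, and the arrays were interleaved.

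Sox1, the member of this Sox group most restricted to the neural plate, was the progenitor gene whose arrays were apart. It measured 9.06, 9.02 and 9.04 in wild type and 8.95, 8.97 and 8.89 in Tbx1 null. All null arrays were below all wild type arrays, by a change of -0.10 (interval -0.20 to 0.003, unadjusted p = 0.0547, adjusted p = 0.540). Leaving out any array kept the change between -0.12 and -0.07.

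Neurog1, the factor that starts sensory neurogenesis in the trigeminal ganglion, was 8.13, 7.73 and 7.70 in wild type and 7.84, 7.47 and 7.58 in Tbx1 null. Wild type replicate 1 was highest of the 6 arrays and the genotypes overlapped. The change was -0.22 (interval -0.53 to 0.08, adjusted p = 0.673), and -0.08 without that array. Neurog2, its counterpart in the epibranchial placodes, was 8.15, 8.01 and 7.86 in wild type and 7.99, 7.99 and 7.92 in Tbx1 null. The null arrays lay inside the wild type range, with a change of -0.04 (interval -0.21 to 0.13) that was 0.03 without wild type replicate 1.

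Among the 8 transcription factors of differentiation, 7 had a change below 0, but 7 of the 8 lay between -0.09 and 0.04. The exception was Neurod1, a bHLH factor downstream of the neurogenins (probe set 10484276, Entrez gene 18012). It measured 7.36, 6.41 and 6.995 in wild type and 6.17, 6.07 and 6.69 in Tbx1 null. Replicate 1 was highest and replicate 2 lowest among the wild type arrays, and Tbx1 null replicate 3 lay above wild type replicate 2. The change was -0.61 (SE 0.25, interval -1.18 to -0.04, unadjusted p = 0.0399, adjusted p = 0.485), or 1.52-fold lower. Without wild type replicate 1 it was -0.39 (unadjusted p = 0.131), and without wild type replicate 2, -0.86 (unadjusted p = 0.00339, adjusted p = 0.347).

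Neurod4, a relative of Neurod1, had a change of -0.09. Nhlh1 and Nhlh2, bHLH factors of newly born neurons, had changes of -0.09 and -0.05. The sensory neuron factor Pou4f1 had a change of -0.07 (interval -0.19 to 0.05), and Phox2a, a factor of visceral sensory and autonomic neurons, one of -0.03. Insm1, a zinc-finger factor of neurons and endocrine cells about to differentiate, had a change of -0.003 (interval -0.17 to 0.16). Neurod6, known mainly in the forebrain, was the dimmest, between 4.49 and 4.64 on all arrays, with a change of 0.04. None of these 7 had a 95% interval that left out 0. Wild type replicate 1 was the highest of the 6 arrays for 6 of the 8 factors.

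Neuronal RNA-binding proteins of the Elavl family had small changes, all below 0. Elavl3 was 7.973, 7.794 and 7.789 in wild type and 7.742, 7.787 and 7.667 in Tbx1 null (change -0.12, interval -0.27 to 0.03, and -0.06 without wild type replicate 1). Elavl4 gave 7.06, 7.10 and 7.13 against 6.99, 6.996 and 7.05 (change -0.08, interval -0.18 to 0.02). In both the null arrays lay below all wild type arrays, for Elavl3 in the third decimal only. Elavl2 had a change of -0.09 with overlapping arrays.

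Of the cytoskeletal genes, Dpysl3 had the lowest p of the 33. It encodes a collapsin response mediator protein of growth cones (probe set 10458663, Entrez gene 22240). Wild type arrays measured 10.77, 10.67 and 10.73 and Tbx1 null arrays 10.96, 10.95 and 11.01, so each null array was above each wild type array. The change was 0.25 (SE 0.05, interval 0.14 to 0.36, unadjusted p = 0.000807, adjusted p = 0.126), or 1.19-fold higher. Without 1 array the change stayed between 0.22 and 0.27 and the adjusted p between 0.160 and 0.412. It passed in 1 alternative, with array weights (adjusted p = 0.0172). Dpysl3 was among the 6 of the 33 genes at or above the median level of all genes. Which cells of the arch gave its signal was not tested.

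Dcx, the doublecortin of migrating young neurons, went the same way. It was 6.74, 6.58 and 6.62 in wild type and 6.78, 6.78 and 6.85 in Tbx1 null, again with no overlap. Wild type replicate 1 was the wild type array nearest to the null arrays. The change was 0.16 (interval 0.03 to 0.29, adjusted p = 0.412), and 0.21 without wild type replicate 1. Map2, a microtubule protein of dendrites, had a change of 0.12 (interval -0.04 to 0.29), and Mapt, which encodes tau of axons, one of -0.08. Without wild type replicate 1 these were 0.06 and -0.01. Tubb3, the neuronal beta tubulin, was 7.23, 7.04 and 7.11 in wild type and 6.89, 7.45 and 7.31 in Tbx1 null, and Stmn2, a stathmin of growing axons, 7.21, 6.97 and 7.02 against 6.73, 7.06 and 7.29. For both genes Tbx1 null replicate 1 was the lowest of the 6 arrays, and the null SD (0.29 and 0.28) was over that of wild type (0.10 and 0.13). Their changes were 0.09 (interval -0.22 to 0.40) and -0.04 (interval -0.35 to 0.27). Stmn3, another stathmin, had a change of -0.10.

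**Figure D2:**
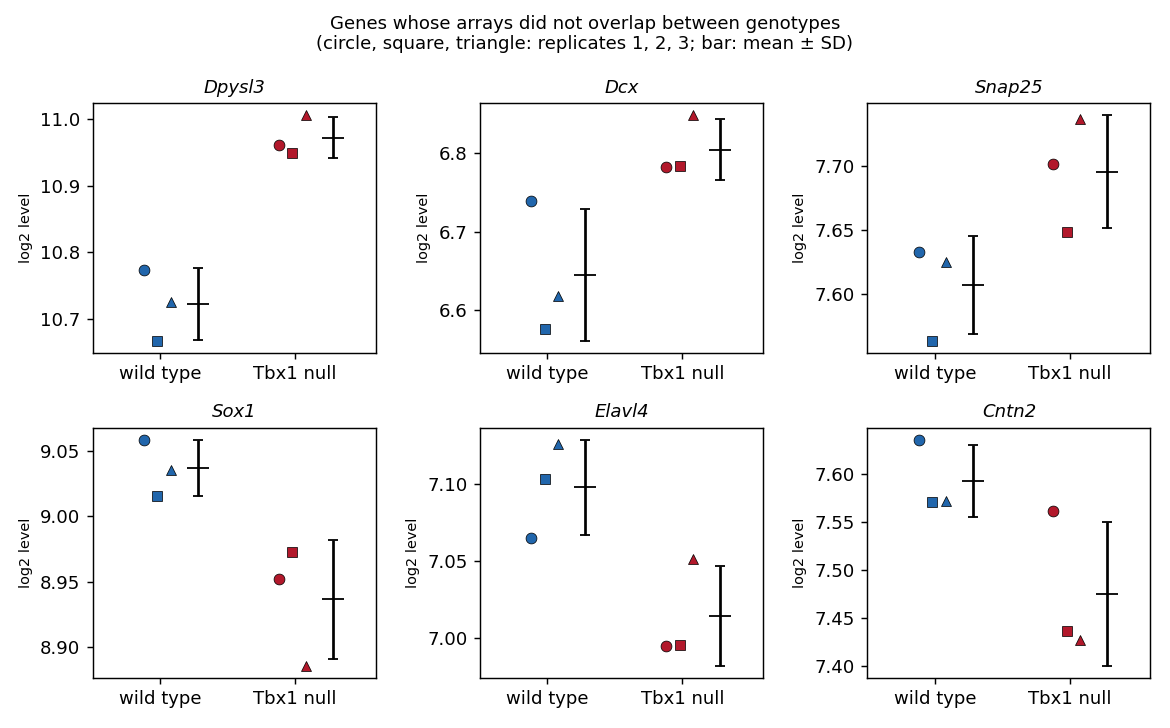
Log2 level on each array (vertical axis, a separate scale per gene) of 6 of the 7 genes whose arrays did not overlap between genotypes, with mean ± SD beside the points. Dpysl3, Dcx and Snap25 are higher and Sox1, Elavl4 and Cntn2 lower on all 3 null arrays, each by 0.25 or less on average.

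In all 7 of the 33 genes had no overlap between genotypes. Dpysl3, Dcx and Snap25 were higher on every null array, which is 9.09% of the set against 8.36% of all genes, and Sox1, Elavl3, Elavl4 and Cntn2 were lower, which is 12.1% against 7.06%. Snap25, a SNARE protein of synaptic vesicle release, was 7.63, 7.56 and 7.63 in wild type and 7.70, 7.65 and 7.74 in Tbx1 null (change 0.09, interval -0.02 to 0.20). Cntn2, the axonal adhesion protein contactin 2, was 7.64, 7.57 and 7.57 against 7.56, 7.44 and 7.43 (change -0.12, interval -0.24 to 0.003). The synaptic vesicle calcium sensor Syt1 and the adhesion gene Nrcam had changes of 0.02 each, with overlapping arrays. Gap43, a growth cone protein, was 10.43, 10.64 and 10.64 in wild type and 10.48, 10.54 and 10.40 in Tbx1 null. Wild type replicate 1 lay below the other wild type arrays for this gene, and the change went from -0.10 (interval -0.26 to 0.06) to -0.17 (unadjusted p = 0.0214) without it.

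Ina encodes alpha-internexin, an intermediate filament of young neurons, and had the largest change of the 33 (probe set 10463732, Entrez gene 226180). It measured 9.77, 8.44 and 8.91 on wild type replicates 1, 2 and 3 and 8.25, 8.22 and 8.54 on the null replicates. Wild type replicate 1 stood 1.09 above the mean of the other wild type arrays, and Tbx1 null replicate 3 lay above wild type replicate 2. The change was -0.70 (SE 0.29, interval -1.38 to -0.02, unadjusted p = 0.0443, adjusted p = 0.505), or 1.63-fold lower. It was -0.34 without wild type replicate 1 (unadjusted p = 0.0649) and -1.003 without wild type replicate 2 (unadjusted p = 0.00421).

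Nefl, the light neurofilament chain (probe set 10416175, Entrez gene 18039), was 7.93, 7.63 and 7.83 in wild type and 7.32, 7.51 and 7.66 in Tbx1 null. Here no single array set the change: only Tbx1 null replicate 3 reached into the wild type range, just above wild type replicate 2. The change was -0.30 (SE 0.10, interval -0.54 to -0.06, unadjusted p = 0.0200, adjusted p = 0.409), 1.23-fold lower, and leaving out any 1 array kept it between -0.38 and -0.21. Nefm, the medium chain, measured 6.22, 6.09 and 6.30 in wild type and 6.24, 6.18 and 6.33 in Tbx1 null (change 0.05, interval -0.11 to 0.21). Prph, the peripherin of peripheral neurons, was 7.47, 7.49 and 7.29 in wild type and 7.36, 7.46 and 7.21 in Tbx1 null (change -0.07, interval -0.26 to 0.11). For Nefm and Prph the arrays of both genotypes were interleaved.

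L1cam, an adhesion molecule of growing axons, also had a wide spread among the wild type arrays. It was 8.95, 8.03 and 8.21 in wild type and 8.14, 8.05 and 8.40 in Tbx1 null. Wild type replicate 1 stood 0.83 above the mean of the other wild type arrays, and the rest of the arrays overlapped. The change was -0.20 (interval -0.71 to 0.31, adjusted p = 0.844), and it turned to 0.07 without that array.

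**Figure D3:**
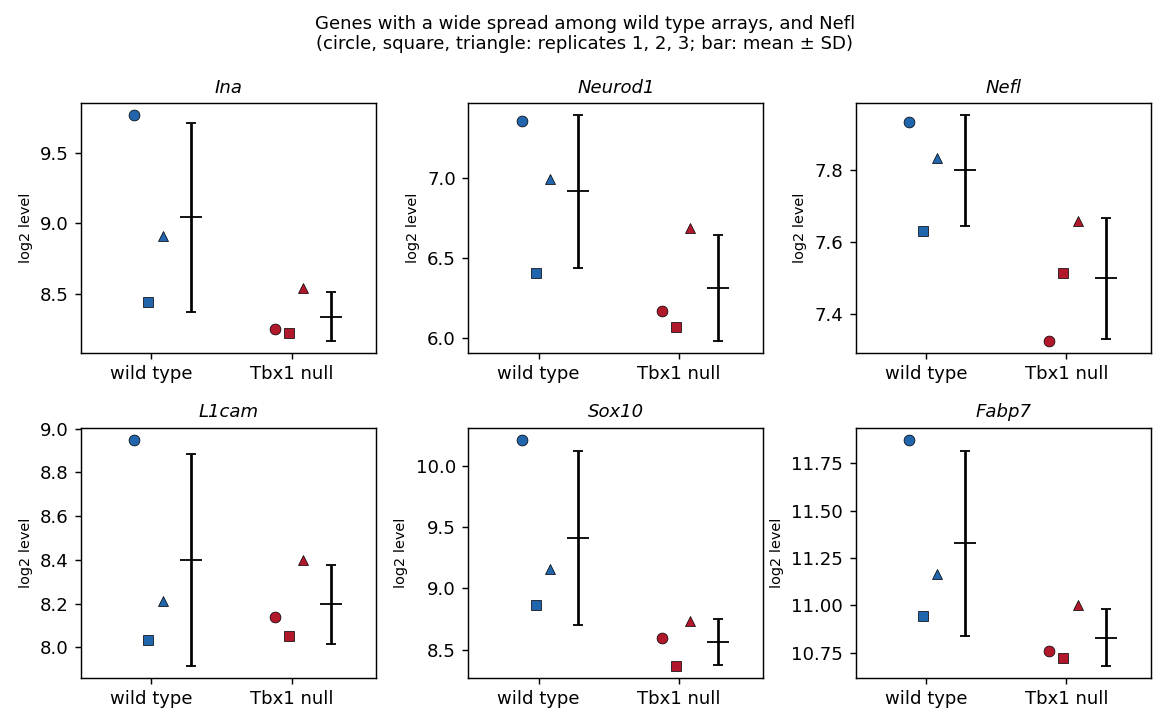
Log2 level on each array (vertical axis, a separate scale per gene) of Ina, Neurod1, Nefl and L1cam and of the glial and crest genes Sox10 and Fabp7, with mean ± SD beside the points. In each panel wild type replicate 1 (blue circle) is the highest of the 6 arrays, followed within wild type by replicate 3, and Tbx1 null replicate 3 (red triangle) is the highest null array.

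Array by array, wild type replicate 1 carried the most signal of the set. It was the highest of the 6 arrays for 16 of the 33 genes, or 48.5% (21.8% of all genes), and the highest wild type array for 24 of them (36.7% of all genes). The lead was by 0.5 or more over the mean of the other wild type arrays for 3 genes, Ina, L1cam and Neurod1, as for 59 genes in all, 0.296% of those tested. Averaged over the filament genes, wild type replicates 1, 2 and 3 stood 0.36, -0.07 and 0.10 from the mean of the 6 arrays, and the null replicates -0.19, -0.14 and -0.05. For the differentiation genes these averages were 0.11, -0.04 and -0.01 in wild type and -0.06, -0.03 and 0.03 in Tbx1 null. For the progenitor genes wild type replicate 1 stood 0.13 above the mean and the other 5 arrays between -0.06 and 0.003 from it. In each group wild type replicate 1 was the highest array, and for the differentiation genes Tbx1 null replicate 3 was the next.

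**Figure D4:**
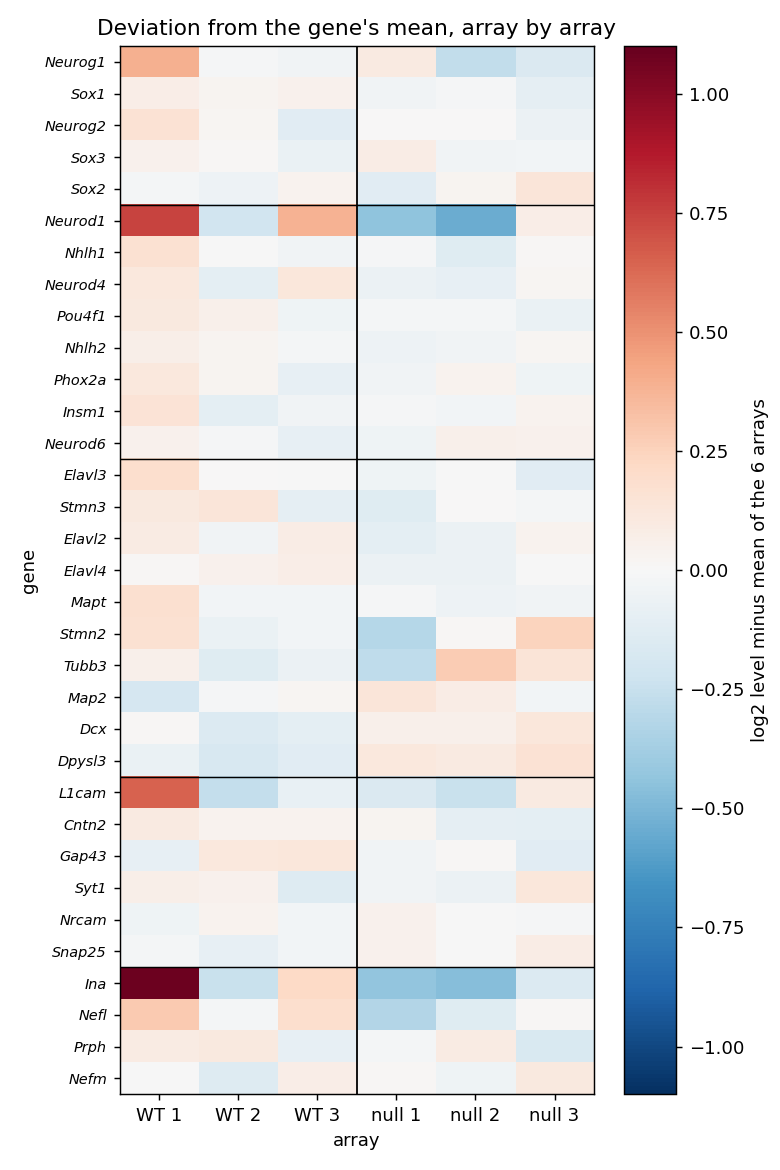
Deviation of each gene (rows, in the 5 role groups) on each array (columns) from the gene's mean over the 6 arrays, on the log2 scale; red is above and blue below. The column of wild type replicate 1 is the reddest, most of all for Ina, Neurod1 and L1cam, while Dpysl3 and Dcx are red on the null arrays.

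Markers of migratory crest and glia were also high on this array. Of 8 measured markers 7 were highest on wild type replicate 1, and their mean level was 9.70 there, 9.22 and 9.28 on the other wild type arrays and 9.07 to 9.26 on the null arrays. Sox10, the factor of migrating crest and glia, was 10.21, 8.86 and 9.16 in wild type and 8.60, 8.37 and 8.74 in Tbx1 null. Its change was -0.85 (interval -1.56 to -0.13, adjusted p = 0.435), and -0.44 without wild type replicate 1. Cdh6, a cadherin of crest cells, was 11.59, 11.13 and 11.18 in wild type and 10.74, 10.73 and 11.15 in Tbx1 null (change -0.43, adjusted p = 0.423), and its change was -0.28 without that array. Of the 8 markers 5 had a change below 0 and 3 above (median -0.12). Ednrb, the endothelin receptor of crest cells, went the other way, at 8.41, 7.94 and 7.96 in wild type and 8.25, 8.31 and 8.34 in Tbx1 null (change 0.20, adjusted p = 0.674), and its change was 0.35 without wild type replicate 1 (limma unadjusted p = 0.000278). Ngfr, the low-affinity neurotrophin receptor, was the only gene of this list that passed the threshold, with 9.31, 9.19 and 9.09 against 8.53, 8.44 and 8.53 (change -0.70, SE 0.06, adjusted p = 0.0142). It passed without wild type replicate 1 (change -0.64, limma adjusted p = 0.0407) or wild type replicate 3 (adjusted p = 0.0344). It did not pass without wild type replicate 2 (limma adjusted p = 0.116) or without Tbx1 null replicate 1, 2 or 3 (0.0796, 0.133 and 0.0601), while its change stayed between -0.75 and -0.64 in all 6 cases. Wild type replicate 1 was also the highest array for genes of other lists. These were 8 of 19 genes of cranial ganglia and placodes, 9 of 20 proneural and Notch genes and 8 of 16 neural tube genes. Core mesoderm gave 3 of 5, epithelium and pharyngeal endoderm 3 of 16 and crest mesenchyme 0 of 11. Over all genes the share was 21.8%. Pax9, of pharyngeal endoderm, stood 0.65 above the mean of the other wild type arrays there. The part of the crest and glial cells in the levels of Ina, Neurod1 and L1cam was not tested.

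Markers of epithelium, in which Sox2 is also known, and of pharyngeal endoderm formed 1 list. Their mean levels were 9.95 to 10.07 on the wild type arrays and 10.02 to 10.19 on the null arrays. None of 16 passed, while at an unadjusted limma p under 0.05 there were 5 higher and 0 lower. Over all genes 5.5% were higher and 3.94% lower by that p. Of the 16, 12 had a change above 0 and 4 below. Tbx1 null replicate 3 was the highest array for 7 of these 16 markers, or 43.8% against 20.4% of all genes. It was also the highest for Sox2, which was lowest on Tbx1 null replicate 1. Epcam, the pan-epithelial adhesion gene, had a change of 0.003 and Krt14, a keratin of basal cells, one of 0.43 (adjusted p = 0.137). The largest change in size was that of Pax9, a pharyngeal endoderm factor, which went the other way. It was -0.50 (limma adjusted p = 0.530), and -0.28 without wild type replicate 1. Markers of core mesoderm, the source of the arch muscles, gave no call, but 3 of 5 were lower and 1 was higher with an unadjusted p below 0.05. Of these, Myf5, a muscle factor, had a change of -0.66 (limma adjusted p = 0.0509), Tcf21 one of -0.53 and Isl1, a factor also of sensory and motor neurons, one of 0.36. Primitive erythroid markers were lower by that p for 5 of 5, with changes of -0.37 to -0.17, and endothelial markers for 0 of 5, and neither list gave a call. The part of these cell types in the neural genes' levels was not tested.

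Other neural genes were read from lists by role. Their counts at an unadjusted limma p under 0.05 stand beside 5.5% of all genes higher and 3.94% lower. Of 19 measured genes of cranial ganglia and placodes none passed (limma, median change 0.04), and an unadjusted p under 0.05 was reached by 1 gene that was higher and 0 that were lower. That gene was Pax8, a factor of the otic and thyroid primordia, at 8.50, 8.03 and 8.26 in wild type and 8.56, 8.80 and 9.80 in Tbx1 null. Tbx1 null replicate 3 stood apart, and the change was 0.79 (interval 0.11 to 1.47, adjusted p = 0.438), or 0.42 without that array. Ret, a receptor of enteric and sensory precursors, had a change of 0.21, the motor and sensory neuron factor Isl2 one of 0.12 and the nicotinic receptor gene Chrnb4 one of 0.18. In all 14 of the 19 had a change above 0 and 5 below. Those 5 were Eya2 (-0.21), Pax3 (-0.18), Gfra3 (-0.14), Pou4f3 (-0.12) and Hmx1 (-0.10), each highest on wild type replicate 1. Without that array their changes were -0.07 to -0.02.

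Of 20 measured proneural and Notch genes none passed (median change -0.04), and 2 higher and 5 lower genes reached an unadjusted p under 0.05. Lfng, a glycosyltransferase that tunes Notch, was 9.99, 9.75 and 9.84 in wild type and 9.57, 9.51 and 9.64 in Tbx1 null (change -0.29, adjusted p = 0.220). Dll1, the Notch ligand of newly committed neurons, was 8.10, 7.91 and 8.02 against 7.79, 7.82 and 7.69 (change -0.24, adjusted p = 0.258). For both genes the null arrays lay below all wild type arrays, and the changes without wild type replicate 1 were -0.22 and -0.20. Ebf2, a factor of both neurons and arch mesoderm, had a change of -0.54, and Sox21, a factor that favours differentiation over the progenitor state, -0.20. The 2 higher genes were Ebf3, a relative of Ebf2, with a change of 0.32, and Cbfa2t2, with 0.10. For both, each null array was above each wild type array.

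Of 16 neural tube genes none passed (median change -0.03), and 0 higher and 3 lower genes reached an unadjusted p under 0.05. Pax6, a factor of neural tube and eye progenitors, was 7.13, 6.96 and 7.05 in wild type and 6.86, 6.89 and 6.70 in Tbx1 null (change -0.22, adjusted p = 0.340). Dbx1, a factor of interneuron progenitors, and Chat, the acetylcholine synthesis enzyme of motor neurons, had changes of -0.17 each. Fabp7, a fatty acid binding protein of radial glia and crest-derived glia, was 11.88, 10.94 and 11.16 in wild type and 10.76, 10.72 and 11.00 in Tbx1 null. As with Ina, wild type replicate 1 stood above the rest, and its change of -0.50 was -0.23 without that array.

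Ina, Neurod1 and L1cam stood out on the same array, while Dcx did not. The 250 bases before the start sites of these 4 genes are described here. Whether these bases bear on the levels of the genes was not tested. Sequences are from RefSeq (GRCm38.p6), which held promoters for 24 of the 33 genes, and are printed 5′ to 3′ on the gene's strand. Capitals mark the E-box CANNTG, the kind of site that bHLH factors such as the neurogenins bind. The windows lie at chr19:47014431-47014680 (plus strand), chr2:79456637-79456886 (minus strand), chrX:73880835-73881084 (minus strand) and chrX:143933220-143933469 (minus strand). They end at the base before the start site, so they hold no exon of that transcript.
Ina: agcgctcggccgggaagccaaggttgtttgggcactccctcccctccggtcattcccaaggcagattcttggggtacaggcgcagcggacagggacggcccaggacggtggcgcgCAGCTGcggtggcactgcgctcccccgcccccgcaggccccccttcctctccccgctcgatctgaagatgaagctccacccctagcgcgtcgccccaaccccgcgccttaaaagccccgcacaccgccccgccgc
Neurod1: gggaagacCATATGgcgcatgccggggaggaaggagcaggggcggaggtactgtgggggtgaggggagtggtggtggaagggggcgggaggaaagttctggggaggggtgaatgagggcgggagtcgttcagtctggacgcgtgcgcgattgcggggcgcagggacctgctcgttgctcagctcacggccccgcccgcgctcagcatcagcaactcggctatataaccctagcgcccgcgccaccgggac
L1cam: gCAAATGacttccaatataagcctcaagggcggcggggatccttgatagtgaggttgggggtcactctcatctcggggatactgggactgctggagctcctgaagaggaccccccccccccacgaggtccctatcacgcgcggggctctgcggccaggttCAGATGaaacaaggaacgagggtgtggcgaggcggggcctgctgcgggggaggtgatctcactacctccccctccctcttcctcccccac
Dcx: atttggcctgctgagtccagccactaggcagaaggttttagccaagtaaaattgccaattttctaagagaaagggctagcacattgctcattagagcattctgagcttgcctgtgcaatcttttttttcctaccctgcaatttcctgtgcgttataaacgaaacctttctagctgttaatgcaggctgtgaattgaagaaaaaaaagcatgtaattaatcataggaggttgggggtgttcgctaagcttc
The Ina window held 1 E-box, CAGCTG at 135 bases upstream, the Neurod1 window 1, CATATG at 242, and the L1cam window 2, CAAATG at 249 and CAGATG at 90, while the Dcx window held 0. Such a match was present in 66.2% of all 32536 distinct windows of this length and in at least 1 listed promoter of 14 of the 24 neural genes. The counts of genes take any listed promoter, so they are not of the same unit as the shares of windows. For each printed gene the listed promoter furthest upstream was taken. CAGATG, the form of E-box linked to the neurogenins and Neurod1 and itself an overlap with CANNTG, was found in L1cam alone of the 4 windows, in 5 of the 24 genes and in 14.4% of all windows. GGTGTGA, a core T-box motif, was in none of these 4 windows, in 0 of the 24 genes and in 3.33% of all windows. Both strands were searched. A match is a description of the letters only, and the guanine and cytosine content of the windows was 70.8%, 67.6%, 63.2% and 41.6% in the order printed.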

How the data were processed

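Gene expression was measured in mandibular arches with Affymetrix Mouse Gene ST 1.0 arrays, 3 for wild type and 3 for Tbx1 null. The authors deposited 1 value per probe set, a log2 level from RMA (background correction, normalization between arrays, summary of probes), run in Affymetrix Expression Console 1.1 according to the submitters' processing notes. That the scale is log2 follows from the values (3.63 to 14.6, array medians 7.98 to 8.04). Since RMA aligns the arrays, a shift common to most genes would not show, and dim probe sets understate changes.

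Of 35556 probe sets, 21789 had 1 symbol in the platform annotation, and 21698 of these matched RefSeq by Entrez ID. Genotypes were compared over 19938 genes with limma 3.58.1 in R 4.3.3 (lmFit, eBayes, two-sided), without covariates, adjusted by Benjamini-Hochberg. The script was tested on simulated data. The members, lists and tests were chosen with earlier results of these data known. Values on all arrays are given for progenitor and filament members and for those with the lowest p, no overlap between genotypes, or the largest change or SD. From other lists the first member and up to 4 of lowest p could be named, and a few further members that went the other way. Those lists held 115 genes, of which 105 were measured. Alternatives covered pairing, single arrays, scaling, filters, variance model, array weights and probe sets.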

Additional observations from a re-analysis of the deposited data

How the results depend on the processing

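No neural gene was called in 14 of the 15 alternatives, and 1, Dpysl3, was called with array weights, which called 334 genes in all. The count over all genes, 32 as reported, was 96 with an intensity trend and robust estimation, 4 with every probe set tested, and 3 to 20 with 1 array left out. The number of neural genes lower at an unadjusted limma p under 0.05 was 3 as reported (3.94% of all genes). It was 7 after quantile normalization again (7.12%) and 6 after centring on the array median (6.95%). It was 1 above the median level (4.32%) or with trend and robust estimation (4.51%). With every probe set tested it was also 1, beside 676 of the 19938 genes. With 1 array left out it was 1 to 4 (2.8% to 6.68%). The number higher, 2 as reported, was 4 with array weights (10.2% of all genes, from 5.5%), 1 with either filter on dim genes (6.66% and 8.14%) and 1 to 3 with 1 array left out (4.04% to 6.96%), so the background moved too. These counts at an unadjusted p were added to the alternatives after the data were seen. The filter at the median level left 6 neural genes, with medians of 0.075 for the differentiation and -0.70 for the filament genes, the latter Ina alone.

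Replicate numbers are shared by the genotypes, but same-numbered arrays did not deviate together throughout (correlations of -0.05, 0.26 and 0.15 over genes for numbers 1, 2 and 3), so the numbers were not taken to pair the samples. With the replicate number as a block 6 genes were called, none of them neural, and 5 neural genes were lower at an unadjusted p (4.76% of all genes).

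Of 263 changes of single genes under the alternatives that kept all arrays, 254 kept their sign and their side of the threshold, 8 turned sign and 1 (Dpysl3) passed. Of 198 with 1 array left out, 183 kept both and 15, of 10 genes, turned sign. Sox2 was -0.00088 and Syt1 -0.0085 after centring, Sox3 -0.043 after quantile normalization again and -0.023 after centring, Nrcam -0.0034 after centring and -0.0022 with array weights, and with array weights Insm1 was 0.054 and Syt1 -0.057. With 1 array left out the ranges were -0.034 to 0.10 for Sox2, -0.035 to 0.030 for Sox3, -0.11 to 0.032 for Neurog2, -0.0069 to 0.10 for Nefm, -0.089 to 0.015 for Phox2a, -0.059 to 0.073 for Insm1, -0.024 to 0.25 for Tubb3, -0.17 to 0.11 for Stmn2, -0.39 to 0.073 for L1cam and -0.048 to 0.056 for Syt1. The cause of these shifts was not tested. Signal over background could not be judged, which limits the dim genes, and 3 arrays per genotype limit the precision.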

Other observations

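Ina was read by a further probe set, 10463737, which measured 8.61, 7.46 and 7.82 on wild type replicates 1, 2 and 3 and 7.44, 7.21 and 7.38 on the Tbx1 null replicates. Its difference between genotypes was -0.62, beside -0.70 for the probe set reported, and wild type replicate 1 was again the highest array. On this probe set Tbx1 null replicate 1, not 3, was the highest null array, and no null array reached the wild type range. A further probe set of Stmn3, 10490663, lay between 5.61 and 5.78 on all arrays, with a difference of -0.08 beside -0.10.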
